A study of Mus musculus with 9 samples.

Results

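The extracellular matrix around embryonic heart cells is built from collagens and from the non-collagen proteins examined here, in cultures in which the DNA methyltransferase transcript Dnmt3a or Dnmt3b was knocked down. The genes are 42 matrix glycoproteins, proteoglycans and crosslinking enzymes, given as a list of symbols and matched to the Ensembl identifiers of the count files through GENCODE mouse release 21. All 42 were found among 43629 genes, and all 42 passed the filter on low counts that left 16561 genes for testing. They were sorted by role into 10 adhesive and matricellular glycoproteins, 12 elastic fibre and microfibril proteins, 4 latent TGF-beta binding proteins, 7 small leucine-rich proteoglycans, 4 large proteoglycans and basement membrane proteins, and 5 lysyl oxidases.

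RNA came from primary ventricular cells of embryos of the outbred mouse stock CD-1 at embryonic day 13.5, with the tissue of each litter pooled. After 48 h in culture the cells received 0.012 pmol of siRNA: a non-targeting control, a pool of 4 siRNAs against Dnmt3a, or a pool of 4 against Dnmt3b. They were harvested 72 h after transfection and enriched on magnetic columns for VCAM1, a surface protein used to collect embryonic cardiomyocytes. Each siRNA group held 3 libraries, numbered 1 to 3. All groups share the culture, the transfection and the sort, and no untransfected library was included. The labels do not say whether the libraries of a group came from separate cultures or litters, and the p-values below speak only of the spread among these libraries, which may be technical.

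Each library held 27852412 to 35896018 reads counted in genes. Dnmt3a was 232, 269 and 275 CPM (a gene's reads relative to the TMM-scaled library total, the scale of all levels below unless said otherwise) in the controls and 40.3, 52.9 and 46.3 CPM after its own siRNA, a log2 fold change of -2.48 ± 0.11 (SE; adjusted p = 3.42e-06). Dnmt3b was 4.32, 4.26 and 4.33 CPM in the controls and 1.17, 2.43 and 1.51 CPM after its own siRNA (-1.34 ± 0.23; adjusted p = 0.00816). Neither siRNA gave a called change of the other transcript (adjusted p = 0.752 for Dnmt3b after DNMT3a siRNA and 0.348 for Dnmt3a after DNMT3b siRNA). Vcam1, the transcript of the sort marker, was not called against control. It had -0.42 ± 0.12 after DNMT3a siRNA (adjusted p = 0.051), with every library below every control, and -0.11 ± 0.12 after DNMT3b siRNA (0.632). Markers of cell types were read in the controls beside the label of the cells. The 12 cardiomyocyte markers together took 0.231% ± 0.0289 (SD, n = 3) of the control reads, the 8 fibroblast markers 4.34% ± 1.03, and the 42 matrix genes 6.38% ± 0.149. The 11 epicardial markers took 0.2455% ± 0.0207 and the 9 smooth muscle and pericyte markers 0.6554% ± 0.136. The cardiomyocyte list thus took less of the reads than the fibroblast and smooth muscle lists. The fibroblast list includes the collagen genes Col1a1, Col1a2 and Col3a1, which are also in the collagen list below. Every cardiomyocyte and fibroblast marker was detected, and none stood at 0 in all libraries. Detection does not tell what share of the cells were cardiomyocytes.

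Matrix glycoproteins such as fibronectin and the thrombospondins bind cells, growth factors and other matrix proteins, while elastin is laid down on a scaffold of fibrillin microfibrils and fastened to it by fibulins. Latent TGF-beta binding proteins tether inactive TGF-beta to those microfibrils, small leucine-rich proteoglycans sit on collagen fibrils, and lysyl oxidases crosslink collagen and elastin. In the embryonic heart such matrix is made largely by mesenchymal, epicardial and cushion cells. In bulk RNA of this kind, fewer cells of a type and less RNA per cell cannot be told apart.

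The 42 genes spanned more than 3 powers of 10 in level per exon length, given here as CPM per kb of merged exons. Fn1 (fibronectin) stood highest with 1861 ± 124 CPM per kb (SD, n = 3) in the controls, and Sparc, a collagen-binding matricellular protein, was next with 1851 ± 122, a difference smaller than the spread of either. Thbs1 (thrombospondin 1) had 1046 ± 210 and Bgn (biglycan, a small proteoglycan) 842 ± 47.7 CPM per kb. The highest elastic fibre gene was Fbln2 (fibulin 2) with 569 ± 94.7, the highest lysyl oxidase was Lox itself with 509 ± 49.1, and the highest basement membrane gene was Hspg2 (perlecan) with 319 ± 46.3 CPM per kb. Ltbp3 (79.9 ± 11.0) and Ltbp4 (75 ± 19.7 CPM per kb) led the latent TGF-beta binding proteins and did not differ beyond their spread. At the low end stood Tnxb (tenascin-X) with 1.10 ± 0.189, Sparcl1 with 1.02 ± 0.706, and Mfap5 with 0.469 ± 0.129 CPM per kb. Fn1 alone made up 2.14% ± 0.139 of all control reads, more than any other of the genes. The sum over the 42 genes was 6.24% to 6.53% of reads in the controls, 5.24% to 6.73% after DNMT3a siRNA and 5.94% to 6.33% after DNMT3b siRNA.

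**Figure D1:**
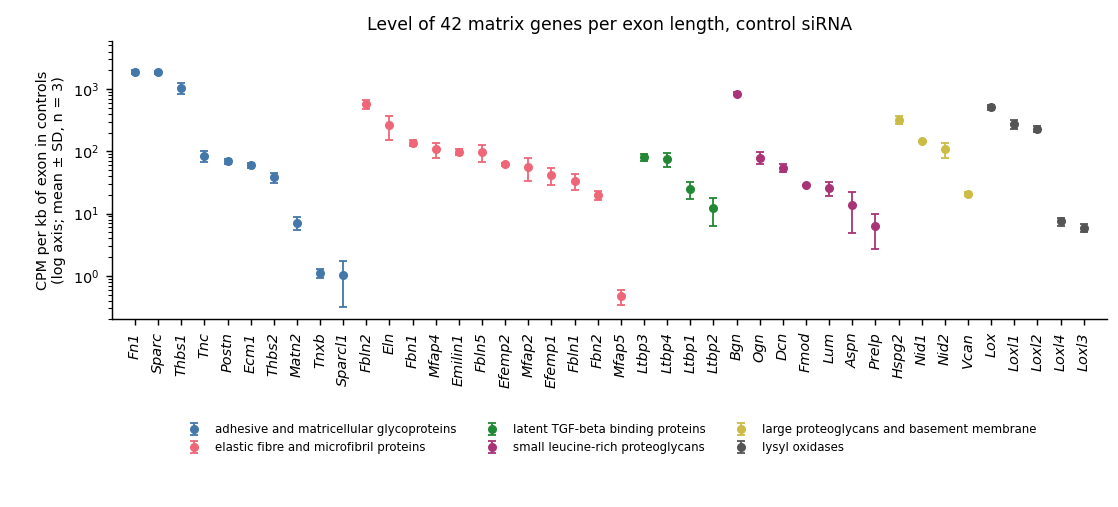
Level of each of the 42 matrix genes in the 3 control libraries, as CPM per kb of merged exon length on a log axis, with points for the mean and bars for the SD, coloured by role. Fn1 and Sparc stand at the top with 1861 and 1851 CPM per kb, and Mfap5 at the bottom with 0.469.

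DNMT3A and DNMT3B place methyl groups on cytosines that precede a guanine (CG), so the CG content of the start regions is given for the genes on which the comparisons below turn. RefSeq promoter windows of 300 bases (250 before to 50 after an annotated start, GRCm38.p6) were at hand for 27 of the 42 genes, 37 windows in all. The 3 windows shown belong to Tnxb and Fbn1, lower after both siRNAs, and to Ltbp4, lower after DNMT3a siRNA. They are written 5′ to 3′ on the gene's strand with every CG in capitals. The Tnxb window is chr17:34670285-34670584 on the plus strand, the Fbn1 window chr2:125506389-125506688 on the minus strand, and the Ltbp4 window, the most upstream of 3, chr7:27337563-27337862 on the minus strand. In GENCODE the Fbn1 gene begins further upstream, at chr2:125507993, so its window lies within the gene and not at its outermost start.
Tnxb: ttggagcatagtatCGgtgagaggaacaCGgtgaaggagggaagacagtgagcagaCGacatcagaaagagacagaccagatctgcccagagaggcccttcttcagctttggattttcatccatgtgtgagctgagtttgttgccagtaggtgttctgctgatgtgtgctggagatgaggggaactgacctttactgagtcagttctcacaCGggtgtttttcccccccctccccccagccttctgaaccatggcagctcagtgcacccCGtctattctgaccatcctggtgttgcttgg
Fbn1: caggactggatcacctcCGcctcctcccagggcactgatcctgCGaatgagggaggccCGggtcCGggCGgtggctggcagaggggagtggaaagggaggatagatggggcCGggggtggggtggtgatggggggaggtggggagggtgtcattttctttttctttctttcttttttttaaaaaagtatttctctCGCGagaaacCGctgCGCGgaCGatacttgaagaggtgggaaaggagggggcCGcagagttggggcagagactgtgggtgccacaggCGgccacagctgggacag
Ltbp4: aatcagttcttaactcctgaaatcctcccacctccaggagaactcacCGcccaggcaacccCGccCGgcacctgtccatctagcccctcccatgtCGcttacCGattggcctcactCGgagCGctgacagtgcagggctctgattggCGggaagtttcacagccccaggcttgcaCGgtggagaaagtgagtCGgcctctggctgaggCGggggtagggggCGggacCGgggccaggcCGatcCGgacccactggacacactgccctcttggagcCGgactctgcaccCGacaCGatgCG

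The motif searched was CG, which reads the same on both strands. The Tnxb window held 5 CG, the Fbn1 window 14 and the Ltbp4 window shown 19, against a median of 7 over 32851 promoter windows of that length, and 11 over the 37 windows of the matrix genes. The ratio of observed to expected CG was 0.238, 0.583 and 0.616 for the 3 windows. The downstream Ltbp4 windows, 2 that overlap each other, held 39 CG each (ratios 0.807 and 0.786). A ratio of at least 0.6 was reached by 14 of the 37 windows (37.8%) and by 35.8% of all windows. Of the genes lower after DNMT3a siRNA, 7 had a window and 4 of these had one at or above that ratio, and of the genes not called in that comparison it was 7 of 20. For DNMT3b siRNA, 0 of the 3 lower genes with a window reached it and 10 of the 23 uncalled ones did. These counts are per gene, by any of its windows, while the percentages before them are per window. Genes with several windows had more chances to reach the ratio, and no share per gene over all genes was taken. The counts describe sequence only. DNA methylation was not analysed here.

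After DNMT3a siRNA, 9 of the 42 matrix genes fell and 0 rose in the unpaired edgeR fit of all 9 libraries, whose calls are meant below wherever no other fit is named. Same-numbered controls and DNMT3a knockdowns were read as pairs from correlations in these same data, not from the labels. With the number as a block in those 6 libraries, a fit added after seeing the data, 19 fell and 2 rose. The 2 were Fbln5 (adjusted p = 0.00204) and Mfap5 (0.0449). In that fit 12.4% of 16066 genes fell and 9.84% rose. Tenascin-X, the fibulin-like protein Efemp1 and the latent TGF-beta binding protein Ltbp4 fell most in the unpaired fit (to 0.266, 0.399 and 0.456 of control), followed by decorin, fibulin 1, matrilin 2, fibrillin 1, nidogen 1 and Efemp2. In the unpaired fit, 5.22% of all 16561 genes fell and 4.87% rose. The median log2 change of the 42 genes was -0.23, against 0.02 over all genes, and 35 of the 42 estimates were negative. In 13 genes the 3 DNMT3a libraries all lay below the 3 controls and in 0 all above, so that 31.0% did not overlap, compared with 26.7% of all genes. At an unadjusted p under 0.05 there were 15 matrix genes (35.7%, against 24.9% of all genes), of which Mfap4 alone had a positive estimate. Library-size scaling moved the share of rises among all called genes from 48.3% to 61.1%, and under it 7 of the matrix genes fell and 0 rose. DESeq2 called 13 lower and 0 higher, among 2303 genes called in all, against 1671 with edgeR.

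After DNMT3b siRNA, 4 matrix genes fell and 1 rose. Tenascin-X fell most, followed by decorin, fibromodulin and fibrillin 1, and Tnc (tenascin-C) rose. Across all genes, 2.12% fell and 3.52% rose. The median log2 change was -0.13 for the 42 genes and 0.00 over all genes. The libraries did not overlap for 15 of the 42 genes, 12 below and 3 above (35.7%, against 26.1% of all genes). DESeq2 called 8 lower and 2 higher, among 1715 genes called in all, against 934 with edgeR. This comparison uses the same 3 control libraries as the one before it, so genes called in both are not independent repeats.

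Between the knockdowns, which share no library, 5 matrix genes were lower after DNMT3a than after DNMT3b siRNA and 1 was higher. Both thrombospondins, matrilin 2, tenascin-C and Ltbp2 were lower, and the microfibril protein Mfap5 was higher. Of all genes, 5.08% were lower and 4.47% higher. The libraries of the knockdowns did not overlap for 15 of the 42 genes, 13 below and 2 above (35.7%, against 32.3% of all genes), and the median log2 difference was -0.10, against 0.01 over all genes. Over the 3 comparisons, 15 genes were called at least once, 5 of them in 2 comparisons, and 27 in none.

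**Figure D2:**
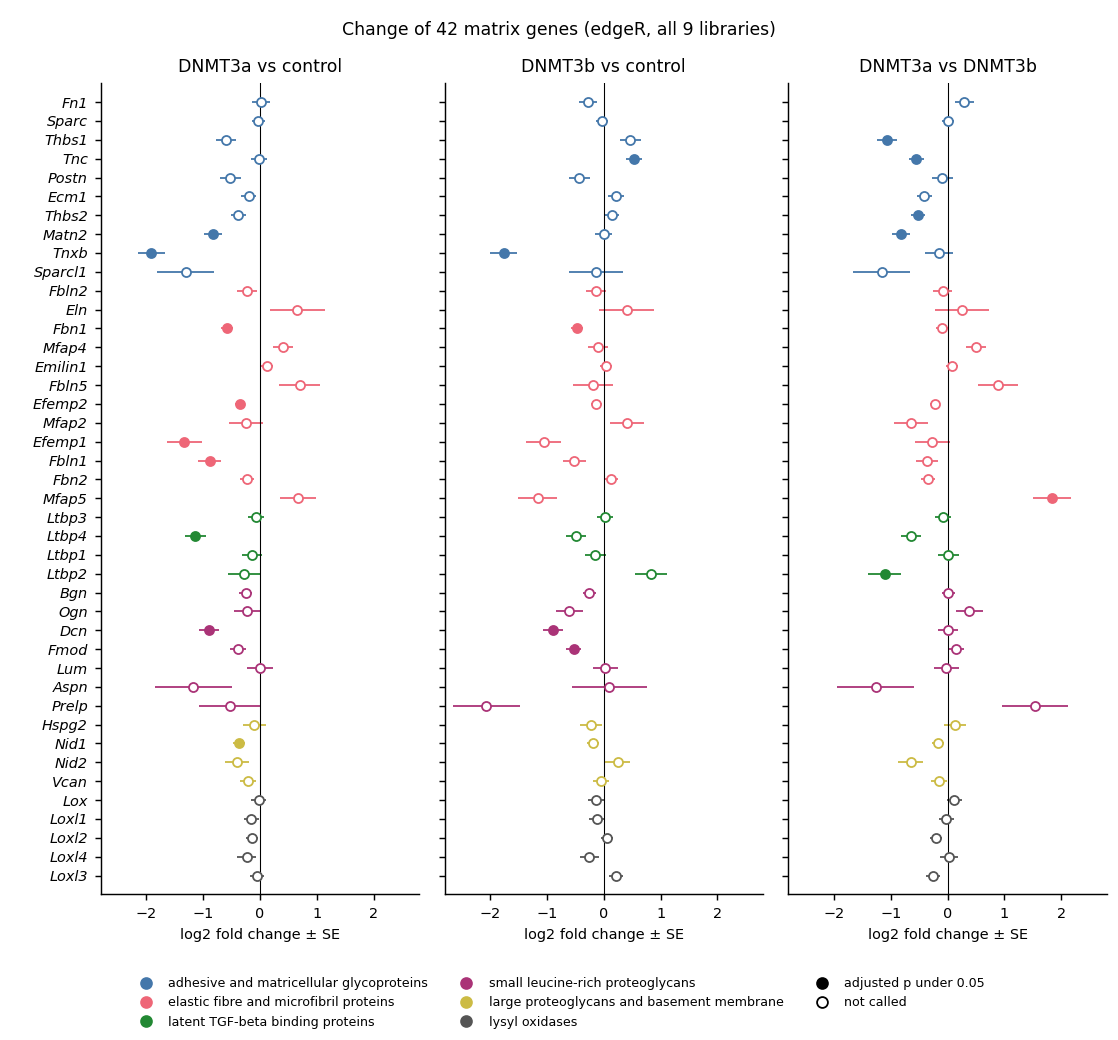
Log2 fold change of each of the 42 matrix genes (horizontal axis, bars for the SE) in the 3 comparisons, coloured by role, with filled points for an adjusted p under 0.05. The left panel has 9 filled points below 0 and none above, the middle panel 4 below and 1 above, and the right panel 5 below and 1 above.

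Among the adhesive and matricellular glycoproteins, the call with the largest change was that of Tnxb, whose product associates with collagen fibrils (GRCm38 chr17:34670535-34719815, plus strand). It stood at 15.3, 10.9 and 14.1 CPM in the controls, 4.51, 2.57 and 3.63 after DNMT3a siRNA, and 3.20, 5.14 and 3.57 after DNMT3b siRNA. All 6 knockdown libraries lay below all 3 controls. The raw counts behind these levels ran from 85 to 550 reads. The log2 fold change was -1.91 ± 0.24 for DNMT3a (adjusted p = 0.000899) and -1.76 ± 0.24 for DNMT3b siRNA (adjusted p = 0.00223), and both calls held in every alternative run, each left-out library included. Between the knockdowns it differed by -0.15 (95% interval -0.69 to 0.38).

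The thrombospondins, multimeric glycoproteins that bind cells and, in the case of thrombospondin 1, can activate latent TGF-beta, differed between the knockdowns. Thbs1 (chr2:118111876-118127133, plus strand) was 6416, 7593 and 5047 CPM in the controls, 4358, 5032 and 3205 after DNMT3a siRNA, and 8867, 9117 and 8412 after DNMT3b siRNA. The DNMT3a libraries lay below the controls and the DNMT3b libraries above them without overlap. Neither difference from control was called (-0.60 ± 0.18, adjusted p = 0.0618, and 0.47 ± 0.18, adjusted p = 0.157), while DNMT3a against DNMT3b was, at -1.07 ± 0.18 (adjusted p = 0.00614), in every alternative run. The difference of DNMT3a from control passed with DESeq2 (adjusted p = 0.00594), with the block in all 9 libraries (0.00974), and without control 3 (0.0385) or DNMT3a 2 (0.028), and that of DNMT3b with the block (0.0294). Numbers were not read as pairing the DNMT3b libraries, so for them the block, here and below, is an alternative run only. Thbs2 was 240, 325 and 239 CPM in the controls, 184, 221 and 214 after DNMT3a siRNA, and 317, 292 and 279 after DNMT3b siRNA. Its libraries did not overlap between the knockdowns (-0.52 ± 0.13; adjusted p = 0.0282). That call was lost without any single DNMT3b library and without DNMT3a 1 or DNMT3a 3 (adjusted p from 0.0678 to 0.122, within a range of 0.000718 to 0.122 over 18 alternatives).

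Matn2, a matrilin that links filamentous networks (chr15:34306677-34436273, plus strand), was 34.4, 55.5 and 44.9 CPM in the controls and 39.7, 50.2 and 44.6 after DNMT3b siRNA, but 25.7, 24.9 and 25.6 after DNMT3a siRNA. The DNMT3a libraries lay below the 6 others, with an SD of 0.429 CPM among themselves. The change was -0.82 ± 0.15 against control (adjusted p = 0.00775) and -0.82 ± 0.15 against DNMT3b siRNA (adjusted p = 0.00991), and both calls held in every alternative run. Against control, the DNMT3b estimate was 0.00 (95% interval -0.34 to 0.33).

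Tnc, an anti-adhesive glycoprotein of growing and remodelling tissue, was the 1 gene called higher after DNMT3b siRNA. It was 666, 769 and 521 CPM in the controls, 717, 666 and 558 after DNMT3a siRNA, and 917, 998 and 923 after DNMT3b siRNA. The DNMT3b libraries stood above the 6 others, which overlapped. The change was 0.54 ± 0.14 against control (adjusted p = 0.0484), and DNMT3a was below DNMT3b by 0.55 on the log2 scale, SE 0.14 (adjusted p = 0.0342). The first call was lost when any 1 library other than control 2 or DNMT3a 3 was left out (adjusted p from 0.0587 to 0.176), and with median-of-ratios scaling, a 1 CPM filter or a fit of the 6 libraries compared. Its range over 18 alternatives was 0.0035 to 0.176. The second was lost without any single DNMT3a or DNMT3b library (0.0543 to 0.128, within a range of 0.00181 to 0.128).

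Fn1 and Sparc, the highest glycoproteins per exon length, were not called. Fn1 was 21743, 20301 and 23206 CPM in the controls, 25240, 16567 and 24235 after DNMT3a siRNA, and 17188, 19028 and 17573 after DNMT3b siRNA. The DNMT3b libraries lay below the controls (-0.28 ± 0.16, adjusted p = 0.347), and the DNMT3a libraries spread around them. Sparc had log2 estimates of -0.03 in both comparisons, with 95% intervals of -0.27 to 0.22 after DNMT3a and -0.28 to 0.21 after DNMT3b siRNA. Postn (periostin, a product of cushion and fibroblast cells) had -0.52 ± 0.19 after DNMT3a siRNA and -0.43 ± 0.19 after DNMT3b siRNA, at adjusted p = 0.114 and 0.218, and the DNMT3a change passed with DESeq2 (0.0305) and without DNMT3a 2 (-0.79, adjusted p = 0.00594). Ecm1 and Sparcl1 were not called by edgeR in any comparison. DESeq2 called Ecm1 lower after DNMT3a than after DNMT3b siRNA (adjusted p = 0.0412), as did edgeR with no filter (0.037). Sparcl1 passed after DNMT3a siRNA with DESeq2 (adjusted p = 0.0434), with the block in 6 libraries (0.0161) and without control 3 (0.0202), and between the knockdowns in a fit of their 6 libraries (0.03). Fn1 passed between the knockdowns without DNMT3a 2 (0.47 on the log2 scale, adjusted p = 0.0268). After DNMT3a siRNA, 4 of 19 alternatives passed for Postn and 3 of 19 for Sparcl1. Between the knockdowns, 2 of 18 passed for Ecm1, 2 of 18 for Fn1 and 1 of 18 for Sparcl1.

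**Figure D3:**
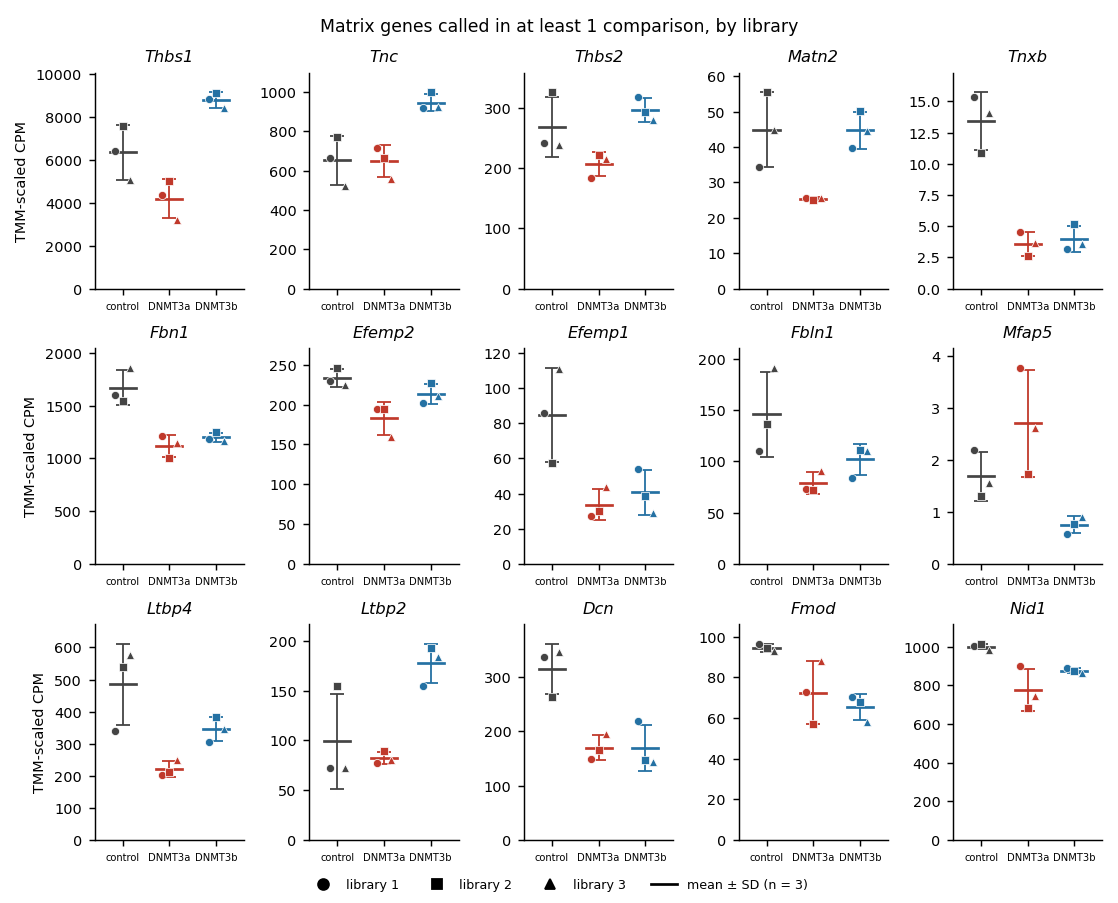
TMM-scaled CPM (vertical axes, from 0) of the 15 matrix genes called in at least 1 comparison, in the control, DNMT3a and DNMT3b groups; circles, squares and triangles are libraries 1, 2 and 3, lines the mean and bars the SD. In the Tnxb panel all 6 knockdown libraries lie below the controls, and in the Matn2 panel only the 3 DNMT3a libraries do.

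Of the 12 elastic fibre and microfibril genes, 4 fell after DNMT3a siRNA and 1 after DNMT3b siRNA. Fbn1, the main fibrillin of microfibrils (chr2:125300594-125507993, minus strand), fell in both. It was 1601, 1545 and 1855 CPM in the controls, 1210, 1001 and 1145 after DNMT3a siRNA, and 1188, 1248 and 1164 after DNMT3b siRNA, so every knockdown library lay below every control. The change was -0.58 ± 0.10 for DNMT3a (adjusted p = 0.0067), called in every alternative run, and -0.47 ± 0.10 for DNMT3b siRNA (adjusted p = 0.0238). The DNMT3b call was lost without control 1 or control 3 and without any single DNMT3b library (adjusted p from 0.0517 to 0.117, within a range of 0.000198 to 0.117 over 18 alternatives). Between the knockdowns the difference was -0.10 (95% interval -0.33 to 0.13). An opposite-strand gene, Gm9913, overlaps 20.1% of the Fbn1 exon bases, and whether the counting used strand is not given in the sources used here.

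Efemp1 and Fbln1, glycoproteins of the fibulin family, fell after DNMT3a siRNA. Efemp1 was 85.9, 57.2 and 111 CPM in the controls and 27.4, 30.0 and 43.8 after DNMT3a siRNA, a change of -1.33 ± 0.31 (adjusted p = 0.0329). After DNMT3b siRNA it was 54.1, 38.8 and 29.1 CPM, also below every control, but not called (-1.05 ± 0.31, adjusted p = 0.0892) except with DESeq2 (0.00154) and without control 2 (0.0325). The DNMT3a call was lost without control 1, control 3, DNMT3a 1, DNMT3a 2 or DNMT3b 2 (adjusted p from 0.0599 to 0.119), with no filter, and without all libraries numbered 2 (range 1.47e-05 to 0.119 over 19 alternatives). Fbln1 was 110, 136 and 191 CPM in the controls and 73.5, 72.5 and 91.0 after DNMT3a siRNA (-0.88 ± 0.20; adjusted p = 0.023), with no overlap. It was not called after DNMT3b siRNA, where it was 84.2, 111 and 110 CPM. Its DNMT3a call was lost without DNMT3a 1 or DNMT3a 2 (0.086 and 0.0701), with no filter, and without all libraries numbered 2 (range 0.000105 to 0.134).

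Efemp2, which recruits lysyl oxidase to elastin, had the smallest called change of the 42 genes. It was 229, 246 and 225 CPM in the controls and 195, 194 and 159 after DNMT3a siRNA (-0.35 ± 0.09; adjusted p = 0.0391). The groups did not overlap. The call held without DNMT3a 2 or DNMT3b 1, but not without any 1 of the other libraries (adjusted p from 0.0571 to 0.118), with library-size scaling or in a fit of the 6 libraries compared (range 0.00544 to 0.118 over 19 alternatives).

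Mfap5, a small microfibril-associated glycoprotein (chr6:122505845-122529290, plus strand), had the largest difference between the knockdowns among the called genes. It was scarce, at 2.20, 1.30 and 1.55 CPM in the controls, 3.76, 1.73 and 2.62 after DNMT3a siRNA, and 0.584, 0.776 and 0.910 after DNMT3b siRNA, from raw counts of 19 to 116 reads. The DNMT3b libraries lay below all others, and the DNMT3a libraries overlapped the controls. The difference of DNMT3a from DNMT3b siRNA was 1.83 ± 0.34 (adjusted p = 0.00907) and was called in every alternative run. Against control, neither DNMT3a (0.67 ± 0.32, adjusted p = 0.214) nor DNMT3b siRNA (-1.16 ± 0.34, adjusted p = 0.0768) was called by the unpaired edgeR fit. The DNMT3b difference passed with DESeq2 (0.0292), with no filter (0.0138), with the block in all 9 libraries (0.0408), and without control 2 (0.0429) or DNMT3a 2 (0.0454). The DNMT3a difference passed with the block in 6 libraries (0.0449).

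The other elastic fibre genes were not called by the unpaired edgeR fit. Mfap4 passed after DNMT3a siRNA without control 2 (0.62 on the log2 scale, adjusted p = 0.0225), and between the knockdowns with DESeq2 (0.0426), in a fit of their 6 libraries (0.0175) and without control 1 (0.0313) or control 2 (0.0296). In all it passed in 2 of 19 alternatives after DNMT3a siRNA and in 5 of 18 between the knockdowns. With the library number as a block in all 9 libraries, Mfap2 passed after DNMT3b siRNA (adjusted p = 0.0471) and between the knockdowns (0.00787), and Fbn2 between the knockdowns (0.0247). The numbers were not read as pairs in either comparison. Fbln2 was 4046, 2931 and 3888 CPM in the controls, 3803, 2327 and 3200 after DNMT3a siRNA, and 3355, 3332 and 3231 after DNMT3b siRNA, and the 3 groups overlapped. Eln (elastin) and Fbln5, the fibulin that fastens elastin to microfibrils, had positive but widely spread estimates after DNMT3a siRNA (0.66 ± 0.48 and 0.70 ± 0.36). Emilin1, an elastin-associated glycoprotein, was nearest to 0 after DNMT3b siRNA, with 0.04 and a 95% interval of -0.20 to 0.28.

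Of the 4 latent TGF-beta binding proteins, Ltbp4 fell after DNMT3a siRNA and Ltbp2 was lower after DNMT3a than after DNMT3b siRNA. Ltbp4 (chr7:27305136-27337692, minus strand) was 340, 540 and 575 CPM in the controls, 202, 211 and 250 after DNMT3a siRNA, and 307, 384 and 346 after DNMT3b siRNA. The DNMT3a libraries lay below the 6 others. The change was -1.13 ± 0.18 for DNMT3a (adjusted p = 0.00485), called without any 1 library but not without all libraries numbered 2 (adjusted p = 0.0651, the highest of 19 alternatives, the lowest being 3.12e-08). After DNMT3b siRNA it was -0.49 ± 0.18 (adjusted p = 0.154), and the difference between the knockdowns was -0.65 (95% interval -1.05 to -0.24; adjusted p = 0.0546), which is not called. The DNMT3b change passed with the block in all 9 libraries (adjusted p = 0.0346) and without control 1 (0.0145), and the difference between the knockdowns with DESeq2 (0.00534), with the block (0.00641), in a fit of their 6 libraries (0.0071), with library-size scaling (0.0499), and without control 1 (0.00698) or control 3 (0.0483).

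Ltbp2, which binds microfibrils but not latent TGF-beta, was 71.9, 154 and 71.8 CPM in the controls, 77.5, 89.3 and 79.9 after DNMT3a siRNA, and 155, 193 and 184 after DNMT3b siRNA. Every DNMT3b library lay above every other, by a narrow margin over control 2. DNMT3b siRNA against control gave 0.84 ± 0.28 (adjusted p = 0.133), and it passed with DESeq2 (0.0132), with the block (0.035), and without control 2, at 1.30 (adjusted p = 0.000104). DNMT3a was below DNMT3b siRNA by 1.11 on the log2 scale, SE 0.28 (adjusted p = 0.0469), a call lost without any single DNMT3a or DNMT3b library (0.0765 to 0.161), with library-size scaling and with no filter (range 0.000189 to 0.161 over 18 alternatives). Its exons share 9.34% of their bases with an opposite-strand gene. Ltbp1 and Ltbp3 had 6 estimates between -0.15 and 0.02, none called. Ltbp3 was 637, 703 and 833 CPM in the controls, 738, 562 and 780 after DNMT3a siRNA, and 662, 796 and 748 after DNMT3b siRNA.

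Among the small leucine-rich proteoglycans, Dcn (decorin, which binds collagen fibrils and TGF-beta) fell in both comparisons with control. It was 338, 263 and 346 CPM in the controls, 149, 165 and 196 after DNMT3a siRNA, and 219, 148 and 143 after DNMT3b siRNA, with every knockdown library below every control. Both changes were -0.89 ± 0.18 (adjusted p = 0.0128 for DNMT3a and 0.0183 for DNMT3b), and the difference between the knockdowns was 0.00 (95% interval -0.39 to 0.40). The DNMT3a call was lost without control 3 or DNMT3a 1 (0.0522 and 0.0567; range 1.69e-05 to 0.0567), and the DNMT3b call without control 1, control 3, DNMT3b 2 or DNMT3b 3 (0.0693 to 0.0876; range 3.07e-05 to 0.0876). Both were also lost with no filter.

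Fmod (fibromodulin, which guides collagen fibril assembly) was 96.5, 94.2 and 92.7 CPM in the controls, 72.6, 57.0 and 87.8 after DNMT3a siRNA, and 70.2, 68.0 and 58.0 after DNMT3b siRNA. It was again lower in all 6 knockdown libraries, and called after DNMT3b siRNA (-0.53 ± 0.14; adjusted p = 0.0474) but not after DNMT3a siRNA (-0.38 ± 0.14; adjusted p = 0.106), where it passed with no filter (0.0422), with the block in 6 libraries (0.0274) and without DNMT3a 3 (0.0305). The difference between the knockdowns was 0.15 (95% interval -0.15 to 0.45). The DNMT3b call held only without DNMT3a 2 or DNMT3a 3 among the left-out libraries (0.056 to 0.194 without the others; range 0.00336 to 0.194). Bgn, the most abundant of the group, was 4813, 5223 and 5375 CPM in the controls, 4630, 3702 and 4650 after DNMT3a siRNA, and 4070, 4383 and 4450 after DNMT3b siRNA. These libraries did not overlap with the controls either, and neither change was called (-0.25 ± 0.11 and -0.26 ± 0.11, adjusted p = 0.21 and 0.227). Lum (lumican) had estimates of 0.00 and 0.03, with 95% intervals within ±0.53.

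Of the large proteoglycans and basement membrane proteins, Nid1 (nidogen 1, which joins laminin and collagen IV networks) fell after DNMT3a siRNA. It was 1002, 1015 and 985 CPM in the controls, 898, 683 and 747 after DNMT3a siRNA, and 889, 875 and 862 after DNMT3b siRNA, with both knockdowns below the controls. The DNMT3a change was -0.37 ± 0.10 (adjusted p = 0.045), and among the left-out libraries the call held only without DNMT3a 1 (0.0612 to 0.131 without any other). It was also lost with library-size scaling and in a fit of the 6 libraries compared (range 0.00421 to 0.159 over 19 alternatives). After DNMT3b siRNA it was -0.19 ± 0.10 (adjusted p = 0.304). Hspg2, the heparan sulphate proteoglycan of basement membranes, was 4504, 3938 and 5257 CPM in the controls, 5260, 2931 and 4618 after DNMT3a siRNA, and 3402, 4356 and 3963 after DNMT3b siRNA, with groups that overlapped. Vcan (versican, the hyaluronan-binding proteoglycan of cardiac jelly) and Nid2 were not called by edgeR in any comparison. Nid2 passed between the knockdowns with DESeq2 (adjusted p = 0.0153), in a fit of their 6 libraries (0.0298) and without control 3 (0.03). With the block in the 6 control and DNMT3a libraries, Vcan (0.0353) and Nid2 (0.033) were lower after DNMT3a siRNA.

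No lysyl oxidase was called by edgeR, DESeq2 or limma-voom in any comparison, and 0 of the 5 had an unadjusted p under 0.05 in edgeR. Lox was 2192, 2661 and 2437 CPM in the controls, 2422, 1949 and 2823 after DNMT3a siRNA, and 2254, 2249 and 2125 after DNMT3b siRNA. The 10 estimates of the 5 enzymes against control lay between -0.26 and 0.22, and the libraries overlapped in all 10. In the controls the order per length was Lox, Loxl1 (273 ± 42.3 CPM per kb), Loxl2 (229 ± 25.2), Loxl4 (7.49 ± 1.09) and Loxl3 (5.93 ± 0.933). The mean ± SD ranges of Loxl1 and Loxl2 overlapped, as did those of Loxl4 and Loxl3. The 95% intervals of Lox were -0.31 to 0.28 for DNMT3a and -0.43 to 0.16 for DNMT3b siRNA. Of the Loxl3 exon bases, 11.6% are shared with Htra2 on the opposite strand.

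Libraries of the same number resembled each other in controls and DNMT3a knockdowns, so each DNMT3a library was also set against the control of its number. In 25 of the 42 matrix genes the DNMT3a library was the lower in all 3 pairs, and in 2, Fbln5 and Mfap5, it was the higher in all 3. Over all genes, 25.1% were lower in all 3 and 28.4% higher in all 3. With library-size scaling the counts were 23 and 4, and the shares of all genes 18.8% lower and 34.2% higher. Tnxb had differences of -1.76, -2.07 and -1.95 on the log2 scale, Ltbp4 of -0.75, -1.35 and -1.20, and Thbs1 of -0.56, -0.59 and -0.66. Aspn (asporin), the gene with the widest spread between libraries of a group, had differences of -1.76, -0.95 and -1.36.

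With the library number as a block in a paired fit of these 6 libraries, 19 matrix genes fell and 2 rose, where 12.4% of 16066 genes fell and 9.84% rose. The 9 genes called without the block were among the 19. Added to them were Postn, Thbs1, Thbs2, Sparcl1, Fmod, Ogn, Aspn, Prelp, Vcan and Nid2, and the 2 that rose were Fbln5 (0.63 ± 0.10, adjusted p = 0.00204) and Mfap5 (0.64 ± 0.20, adjusted p = 0.0449). Thbs1 had -0.62 ± 0.09 (adjusted p = 0.00166) and Aspn -1.34 ± 0.14 (adjusted p = 0.000308) in this fit. No lysyl oxidase was called in this fit. The same block in the fit of all 9 libraries gave 11 lower and 0 higher, adding Thbs1 and Thbs2.

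**Figure D4:**
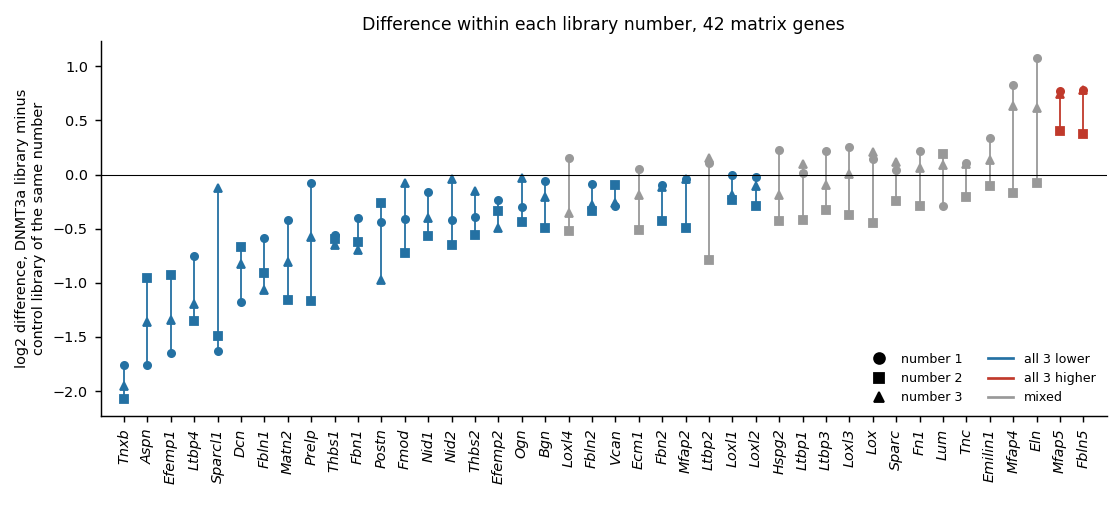
Log2 difference of each DNMT3a library from the control library of the same number for the 42 matrix genes, in order of the mean difference; circles, squares and triangles are numbers 1, 2 and 3. In 25 genes (blue) all 3 symbols lie below 0 and in 2 (red, Mfap5 and Fbln5) all 3 lie above.

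Between libraries of a group, the matrix genes had a higher median SD than all genes, 0.257 against 0.183 in log2 CPM. The upper quartiles were alike, at 0.331 and 0.33. The widest were Aspn (0.872), Prelp (0.776), Sparcl1 (0.742), Eln (0.699) and Fbln5 (0.519). Control 2 and DNMT3a 2 stood apart in several of them. Eln was 1896, 1370 and 3063 CPM in the controls and 4004, 1301 and 4683 after DNMT3a siRNA, lowest in library 2 of both groups. Fbln5 was 812, 436 and 765 CPM in the controls and 1392, 564 and 1312 after DNMT3a siRNA, again lowest in both. Aspn went the other way, at 20.1, 55.4 and 20.3 CPM in the controls and 5.91, 28.6 and 7.91 after DNMT3a siRNA. Without DNMT3a 2 alone, Fbln5 rose after DNMT3a siRNA (1.00 on the log2 scale, adjusted p = 0.0378) and was higher than after DNMT3b siRNA (1.20, adjusted p = 0.0186), and Aspn was lower than after DNMT3b siRNA (-2.31, adjusted p = 0.0491). Without all libraries numbered 2, Tnxb, Matn2, Fbn1, Dcn, Postn and Aspn fell after DNMT3a siRNA and Fbln5 and Mfap4 rose, 6 lower and 2 higher.

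Prelp, a small leucine-rich protein that anchors basement membranes, had the largest estimate of the 42 genes after DNMT3b siRNA without being called. It was 16.8, 13.4 and 37.1 CPM in the controls, 15.9, 5.96 and 24.9 after DNMT3a siRNA, and 3.99, 6.24 and 5.85 after DNMT3b siRNA. The DNMT3b libraries lay below the controls, and the change was -2.06 ± 0.58 (adjusted p = 0.0884). It passed with DESeq2 (adjusted p = 0.00953), with the block in all 9 libraries (0.0474), in a fit of the 6 libraries compared (0.0474), and without DNMT3a 2 (0.0356), as did the difference between the knockdowns without DNMT3a 2 (0.0426).

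**Figure D5:**
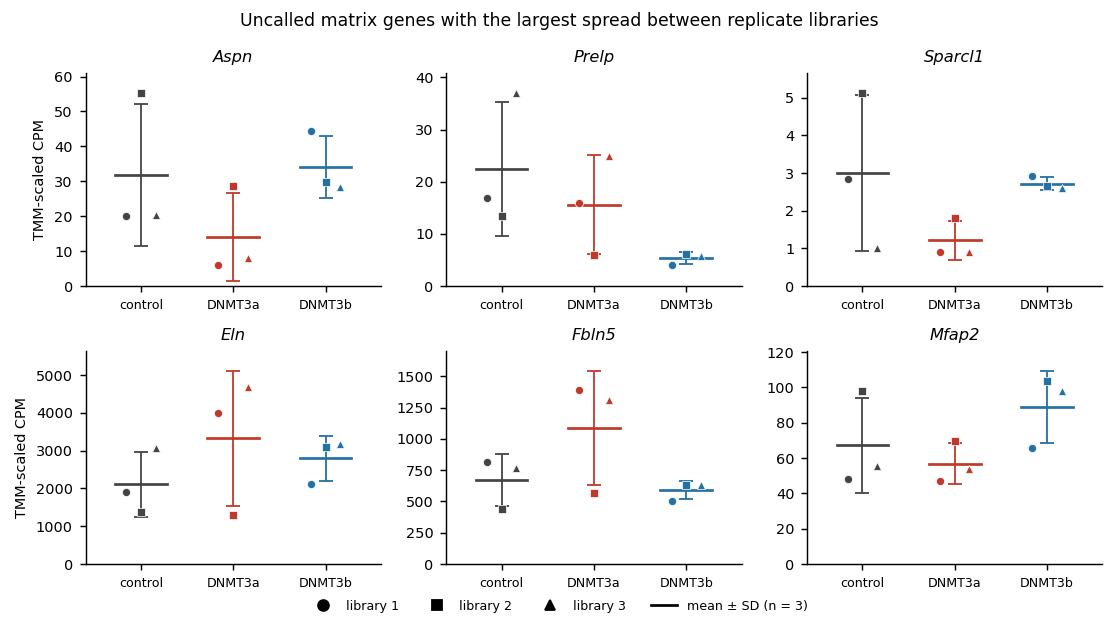
TMM-scaled CPM (vertical axes, from 0) of the 6 uncalled matrix genes with the widest spread between libraries of a group; circles, squares and triangles are libraries 1, 2 and 3, lines the mean and bars the SD. Eln and Fbln5 are lowest, and Aspn highest, in library 2 of both the control and the DNMT3a group.

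Genes that act on the same matrix were read from 6 further lists. Of all genes, 10.1% were called after DNMT3a siRNA, 5.64% after DNMT3b siRNA and 9.55% between the knockdowns, and each list's share called is given in that order. Of 19 TGF-beta genes, 3 fell and 1 rose after DNMT3a siRNA. The receptor genes Tgfbr2 (-1.27 ± 0.11, adjusted p = 0.000102) and Tgfbr1 (-0.80 ± 0.13, adjusted p = 0.00414) and the ligand Tgfb1 (-0.61 ± 0.10, adjusted p = 0.00392) fell. After DNMT3b siRNA 1 rose, the matricellular target Ccn2 (0.60 ± 0.13, adjusted p = 0.0211), and 0 fell. Between the knockdowns Tgfbr2, Tgfb1 and Tgfbr1 were lower after DNMT3a siRNA (-1.04 ± 0.11, -0.61 ± 0.10 and -0.75 ± 0.13), among 4 lower and 1 higher. The shares called were 21.1%, 5.26% and 26.3%, so that after DNMT3b siRNA the list stood near the share of all genes, and its medians were -0.07, -0.03 and -0.08.

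Of 40 matrix proteases and inhibitors tested, 9 fell and 4 rose after DNMT3a siRNA. Mmp3, a secreted metalloprotease that cleaves many of the matrix proteins above, fell (-1.86 ± 0.19, adjusted p = 0.000331), while Mmp15, a membrane-bound one (1.71 ± 0.22, adjusted p = 0.00176), and Adamts17 (1.10 ± 0.17, adjusted p = 0.00266) rose. After DNMT3b siRNA 3 fell and 1 rose: Timp3, an inhibitor held in the matrix (-0.83 ± 0.11, adjusted p = 0.002), and Mmp3 (-1.02 ± 0.18, adjusted p = 0.0098) fell and Mmp15 rose (1.55 ± 0.22, adjusted p = 0.00432). Between the knockdowns 12 were lower and 4 higher after DNMT3a siRNA, with the smallest adjusted p for Adamts1, which cleaves versican (-1.13 ± 0.15, adjusted p = 0.00172), Adamts9 (-0.59 ± 0.08, adjusted p = 0.00236) and Plau, urokinase (-0.92 ± 0.15, adjusted p = 0.00459). The shares called were 32.5%, 10% and 40%, against 10.1%, 5.64% and 9.55% of all genes, and the list medians were -0.25, -0.05 and -0.08.

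Of 11 fibronectin-binding integrin genes, Itgav fell (-0.81 ± 0.09, adjusted p = 0.000432) and Itga9, a receptor for tenascin-C, rose (0.69 ± 0.10, adjusted p = 0.00149) after DNMT3a siRNA. After DNMT3b siRNA 3 rose and 0 fell: Itga9 (0.81 ± 0.10, adjusted p = 0.000945), Itgb3 (0.86 ± 0.15, adjusted p = 0.00989) and Itgb6 (1.43 ± 0.29, adjusted p = 0.0168). Between the knockdowns 3 were lower after DNMT3a siRNA, Itgav (-0.72 ± 0.09), Itgb6 (-1.37 ± 0.29) and Itgb3 (-0.72 ± 0.15). The shares called were 18.2%, 27.3% and 27.3%. Of 14 collagen genes, Col4a1, a basement membrane collagen, fell after DNMT3a siRNA (-0.62 ± 0.12, adjusted p = 0.00824), 0 were called after DNMT3b siRNA (3 at an unadjusted p under 0.05), and Col4a1 and Col18a1 were lower after DNMT3a than after DNMT3b siRNA (-0.54 ± 0.12 and -0.43 ± 0.10). The collagen shares of 7.14%, 0% and 14.3% lay below those of all genes in both comparisons with control.

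Of 26 genes for enzymes that build glycosaminoglycan chains, 3 fell and 2 rose after DNMT3a siRNA, with the smallest adjusted p for Csgalnact2, a chondroitin sulphate enzyme (-0.54 ± 0.11, adjusted p = 0.0123), Extl1 (0.97 ± 0.21, adjusted p = 0.018) and Dse (-0.33 ± 0.08, adjusted p = 0.0263), which makes the dermatan sulphate carried by decorin and biglycan. After DNMT3b siRNA 2 fell and 0 rose, Chst12 (-0.43 ± 0.09, adjusted p = 0.0212) and Dse (-0.32 ± 0.08, adjusted p = 0.0427). Between the knockdowns Ext2 was lower (-0.36 ± 0.08) and Extl2 higher (0.33 ± 0.09) after DNMT3a siRNA. The shares called were 19.2%, 7.69% and 7.69%, after DNMT3b siRNA and between the knockdowns near those of all genes. Of 14 genes for hyaluronan and its binding proteins, 0 were called after DNMT3a siRNA (2 at an unadjusted p under 0.05), Ncan rose after DNMT3b siRNA (1.65 ± 0.33, adjusted p = 0.0158), and the synthase Has1 was lower after DNMT3a than after DNMT3b siRNA (-1.41 ± 0.38, adjusted p = 0.0428). These shares were 0%, 7.14% and 7.14%.

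Markers of cardiomyocytes and of other cell types were read beside these changes. Of all genes, 10.1% were called after DNMT3a siRNA and 5.64% after DNMT3b siRNA. The shares called were 75% and 83.3% of cardiomyocyte, 25% and 37.5% of fibroblast and 45.5% and 18.2% of epicardial markers. Of 12 cardiomyocyte markers, 9 rose after DNMT3a and 10 after DNMT3b siRNA and 0 fell in either, with Nkx2-5 (1.59 ± 0.11, adjusted p = 3.72e-05, and 1.54 ± 0.11, adjusted p = 5.69e-05) among the smallest adjusted p, and their summed level was 2061 to 2690 CPM in the controls, 4341 to 5302 after DNMT3a and 5584 to 6789 after DNMT3b siRNA. Of 8 fibroblast markers, Tcf21 and Pdgfra fell after DNMT3a siRNA (-0.71 ± 0.11 and -0.69 ± 0.15), and 3 fell after DNMT3b siRNA, first Tcf21 (-0.52 ± 0.11) and Thy1 (-0.87 ± 0.18), with 0 rises. The fibroblast sums, which include 3 collagens, overlapped, at 36930 to 56470, 38280 to 41750 and 35830 to 42550 CPM. Averaged as log2 CPM, the list stood at 9.154, 9.595 and 9.296 in the controls. It was 9.081, 9.277 and 9.137 after DNMT3a siRNA and 9.083, 8.983 and 8.918 after DNMT3b siRNA, the latter below every control. In both comparisons 7 of the 8 fibroblast estimates were negative. Of 11 epicardial markers, 3 fell and 2 rose after DNMT3a siRNA, first Aldh1a2 (-1.52 ± 0.18) and Msln (-0.94 ± 0.17), and 1 fell and 1 rose after DNMT3b siRNA, Upk3b (-0.79 ± 0.19) and Krt18 (1.36 ± 0.28). Their sums were 2275 to 2700, 1602 to 2115 and 1626 to 2249 CPM, below every control in all 6 knockdown libraries with TMM scaling. By library size alone, DNMT3b 1 (2244 CPM) stood above control 2 (2224 CPM).

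Of 10 macrophage and leukocyte markers, 3 fell after DNMT3a siRNA, first Csf1r (-1.18 ± 0.26) and Adgre1 (-2.79 ± 0.61), and 0 after DNMT3b siRNA (0 at an unadjusted p under 0.05), and their sums were 22.8 to 61.0, 8.47 to 18.0 and 20.6 to 49.5 CPM. Of 8 cushion and valve markers, Snai2 fell after DNMT3b siRNA (-0.63 ± 0.14), with sums of 273 to 310, 252 to 321 and 307 to 314 CPM. Of 9 endothelial markers tested, Kdr rose after DNMT3b siRNA (1.02 ± 0.23). The sums over all 10 endothelial markers listed were 103 to 138, 90.3 to 142 and 165 to 176 CPM. The 9 smooth muscle and pericyte markers gave 0 calls against control (3 and 5 at an unadjusted p under 0.05), with sums of 5619 to 8255, 7945 to 9084 and 8132 to 9680 CPM. The 3 tested neural markers also gave 0 (0 and 1 at an unadjusted p under 0.05). The sums over all 6 neural markers listed were 70.9 to 131, 104 to 132 and 42.9 to 66.0 CPM. The shares called after DNMT3a and DNMT3b siRNA were 30% and 0% for the macrophage list, against 10.1% and 5.64% of all genes. They were 0% and 12.5% for the cushion and 0% and 11.1% for the endothelial list, 1 called gene each. No marker stood at 0 in all libraries. The part of these markers in the changes of the matrix genes was not tested.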

How the data were processed

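Poly(A) RNA of 9 libraries, 3 per siRNA group, was sequenced on an Illumina NextSeq500, per the labels' protocols. The authors deposited 1 table of whole-number read counts per library, not normalised. The submitters' processing notes name FastQC, TopHat2, HTSeq and mm10/GRCm38, without roles, and neither the annotation release nor the strand setting is given in the sources used here. Summary lines, with 49.2% to 56.2% of each table's total, entered neither library sizes nor tests. Groups came from the labels.

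The counts were scaled by TMM, filtered with filterByExpr (minimum count 10, minimum total 15) and fitted with edgeR 4.0.16 in R 4.3.3 (robust quasi-likelihood, group as the only term, all 9 libraries, 6 residual degrees of freedom, two-sided, Benjamini-Hochberg over 16561 genes, called at an adjusted p under 0.05). Each standard error is the absolute log2 fold change divided by the root of F. Levels per length used merged GENCODE exons. DESeq2 1.42.0, limma 3.58.1, other scalings and filters, left-out libraries and a replicate block were alternatives. 17 of the 42 genes share exon bases with another gene.

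The members and lists were chosen with earlier results of these data known. Genes named were those called in at least 1 comparison, the highest per length of each role group, Dnmt3a, Dnmt3b, and up to 3 called genes with the smallest adjusted p from each pathway list and 2 from each marker list, while others were chosen after their values were seen. Whether numbers pair libraries was checked on deviations from group means: same-number control and DNMT3a libraries correlated across genes with r = 0.434, 0.513 and 0.459, all above 0.1, and were read as paired. The other comparisons were not. The block fit in 6 libraries was added after seeing the data. All replicate pairs differed by more than sampling noise (chi-square over its degrees of freedom was 6.94 to 65.0). This does not tell separate cultures from repeat preparations of the same culture. Each library counted once.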

Additional observations from a re-analysis of the deposited data

How the results depend on the processing

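The alternatives were run for the 42 matrix genes and the counts, not for the genes of the pathway and marker lists. No matrix gene called in a comparison reversed its direction under any alternative run. Tnxb in both comparisons with control, Matn2 and Fbn1 after DNMT3a siRNA, and Thbs1, Matn2 and Mfap5 between the knockdowns were called in every alternative. For genes not called in a comparison, the settings named above are ones that passed, and most of their 18 or 19 alternatives did not. For DNMT3a siRNA against control, leaving out 1 library gave 5 to 8 matrix genes lower, 0 to 1 higher, and 868 to 1839 genes called in all, against 9, 0 and 1671. Leaving out all libraries numbered 2 gave 2 higher. The fit of the 6 libraries compared called 946 genes. With the replicate block in those 6 libraries, 19 were lower, 2 higher and 3580 genes were called.

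For DNMT3b siRNA against control, leaving out 1 library gave 1 to 6 lower, 0 to 2 higher and 287 to 1781 genes, against 4, 1 and 934. The lowest, 287, came without DNMT3b 3 and the highest, 1781, without control 2. Higher matrix genes numbered 0 with median-of-ratios scaling, a 1 CPM filter or the 6 libraries alone, 2 with DESeq2 or without the libraries numbered 2, and 4 with the replicate block. Lower ones numbered 8 with DESeq2 or the block, and genes called 1715 and 1801. Same-numbered libraries correlated here with r = 0.212, 0.101 and 0.0334, so the numbers were not read as pairs, and DNMT3b 3 correlated best with control 2.

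For DNMT3a against DNMT3b siRNA, leaving out 1 library gave 2 to 7 lower, 1 to 4 higher and 524 to 1962 genes, against 5, 1 and 1582. The 524 came without DNMT3b 2. Lower matrix genes numbered 8 with DESeq2, 9 in the 6 libraries and 8 with the replicate block, higher ones 2 with DESeq2 or the 6 libraries and 4 without the libraries numbered 2, and genes called 2513 with the block (r = 0.161, 0.0776 and 0.0414, with DNMT3a 2 closest to DNMT3b 3). The cause of these differences was not tested. Genes with few reads, such as Mfap5, Tnxb and Sparcl1, have the widest counting error.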
